A study of Rattus norvegicus with 2 samples.

Results

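The genes described here are 44 genes of the blood-spinal cord barrier and of the vessel wall. They comprise endothelial junction genes, barrier transporters, vascular receptors and their ligand, surface and signalling genes of endothelium, leukocyte adhesion molecules, transcription factors and genes of mural cells, the pericytes and smooth muscle cells that wrap the vessel. A gene was measured where a probe set of the array named it and no other gene, which held for 40 of the 44 and for 18171 genes in all. Pecam1, Kdr, Foxf2 and Acta2 were not matched to a probe set and were not analysed here. Expression was measured in the lumbar spinal cord (SC, segments L4 to L6) of rats 10 days after surgery, all of them adult males of the Sprague-Dawley stock. In the chronic constriction injury (CCI) group the left sciatic nerve was loosely ligated, and in the Sham group it was exposed without ligation. Each group was 1 array of RNA mixed from 3 rats, which leaves every difference without an error and without a test, and the spread between rats unseen. Values are log2 expression after robust multi-array average (RMA), and a difference is the CCI value minus the Sham value on that scale.

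Endothelial cells of the SC are joined by adherens and tight junctions that close the gap between cells, so that most solutes cross only by transporters. Uptake carriers bring in glucose, amino acids and lipids, whereas efflux pumps of the ABC family return drugs and metabolites to the blood. Pericytes, which are recruited through the receptor Pdgfrb, and astrocyte endfeet are known to maintain this state, and vascular endothelial growth factor (VEGF) and angiopoietins control growth and stability of the vessel.

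Vessel markers were looked at to see whether vessel RNA was detected, which does not check that the tissue was SC. All 9 measured endothelial markers (Cldn5, Cdh5, Tek, Tie1, Flt1, Vwf, Esam, Emcn and Egfl7) and all 6 mural markers (Pdgfrb, Rgs5, Cspg4, Abcc9, Notch3 and Tagln) lay above a rough background level in both arrays. This level, 4.44 in Sham and 4.36 in CCI, was the 95th percentile of 1344 olfactory and vomeronasal receptor genes. Of the 40 genes, 37 were above it in both arrays, and Sele, Selp and Foxc1 were below it in both.

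Vessel and barrier genes were mostly lower in the CCI pool, by small amounts. Of the 40 measured genes, 32 (80.0%) were lower and 8 higher, whereas 52.4% of all genes were lower. The 32 include Sele, Selp and Foxc1, which did not exceed the background level. The median difference was -0.24, or 1.18-fold lower, against -0.01 over all genes. Genes at or above the median level of all genes, 5.83, were more often lower as a whole (58.3%, with a median of -0.04). In that range, 25 of 30 vessel and barrier genes were lower, with a median of -0.26, and 4 of the 30 were lower past 1.5-fold against 0.869% of genes. Past the study's fold of 1.5, 4 of the 40 genes (10.0%) were lower and none higher, against 1.14% and 1.64% of all genes. In tissue RNA, fewer vessel cells and less RNA per cell cannot be told apart.

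**Figure D1:**
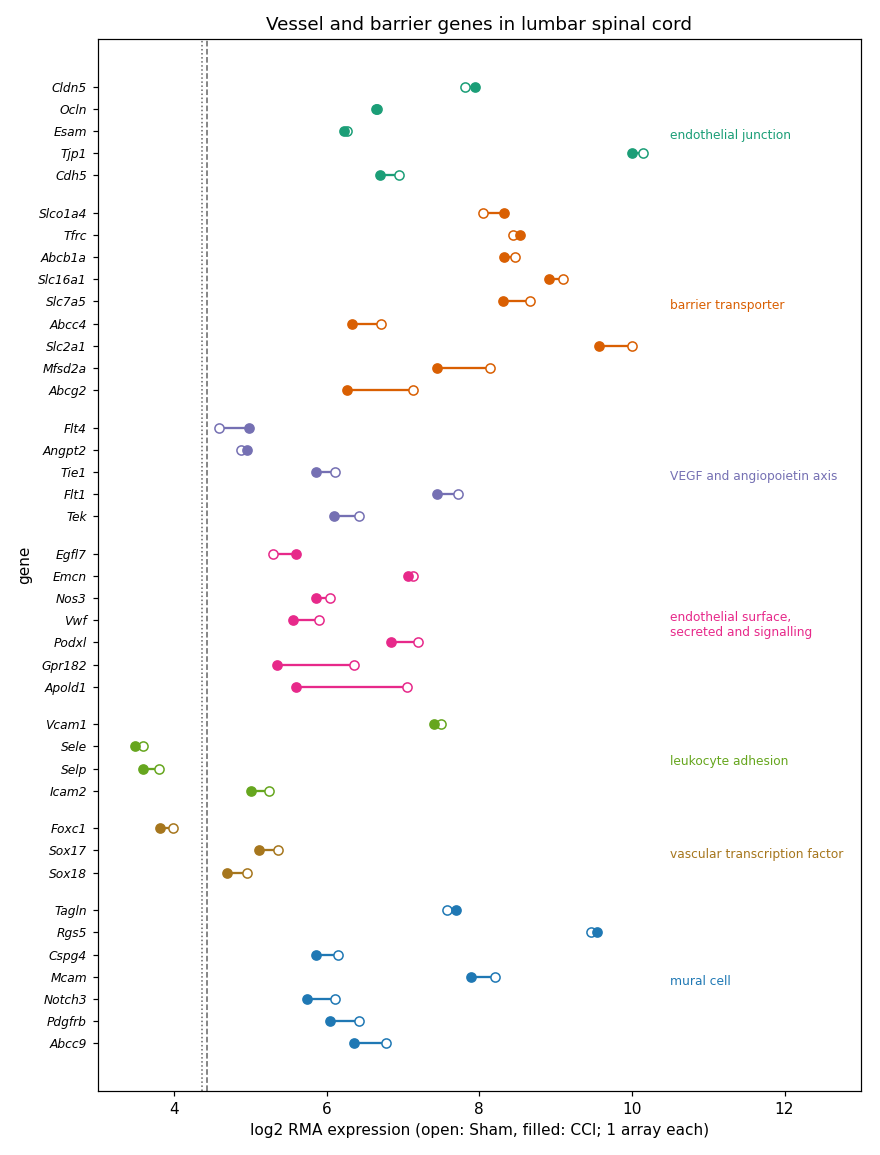
Level of each of the 40 genes (rows, by class) on the log2 RMA scale, as an open point for the Sham array and a filled point for the CCI array, with the background level of Sham (dashed) and CCI (dotted). The long lines to the left belong to Apold1, Gpr182, Abcg2 and Mfsd2a, and Sele, Selp and Foxc1 lie left of the background level.

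The 4 genes past 1.5-fold were Apold1, Gpr182, Abcg2 and Mfsd2a. Apold1, an endothelial early response gene that is induced by ischaemia and other stimuli, was at 7.06 in Sham and 5.61 in CCI, or 2.73-fold lower. This was the 3rd lowest difference of the 18171 genes. Gpr182, a G protein-coupled receptor of endothelium, was at 6.36 in Sham and 5.35 in CCI, or 2.01-fold lower, and lay 13th from the lowest. Only these 2 of the 40 genes were past 2-fold, Gpr182 only just, against 0.0715% of all genes lower by that much. Abcg2, an efflux pump of the luminal membrane, was at 7.13 in Sham and 6.27 in CCI, or 1.81-fold lower, at rank 30. Mfsd2a, which carries lysophospholipids with omega-3 fatty acids and in mice restrains vesicle transport across the endothelium, was at 8.14 in Sham and 7.45 in CCI, or 1.62-fold lower, at rank 101. All 4 genes were above the background level in both arrays.

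The 4 genes were picked by the size of their difference, and none of the endothelial markers was past 1.5-fold. That they differed by more than the markers was thus set by the choice of genes. The median over the 9 endothelial markers was -0.24, with 7 lower and 2 higher and a range from -0.34 to 0.30. Beyond this median, Apold1 differed by a further -1.21, Gpr182 by -0.77, Abcg2 by -0.62 and Mfsd2a by -0.45. The next gene outside the threshold, Slc2a1, was 1.35-fold lower. Without the 4 genes, the remaining 36 had a median of -0.20, with 28 lower and 8 higher. At a lower threshold of 0.32 on the log2 scale, 13 genes (32.5%) were lower, Tek only just, against 8.65% of all genes, and Flt4 alone (2.50%) was higher against 8.01%.

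**Figure D2:**
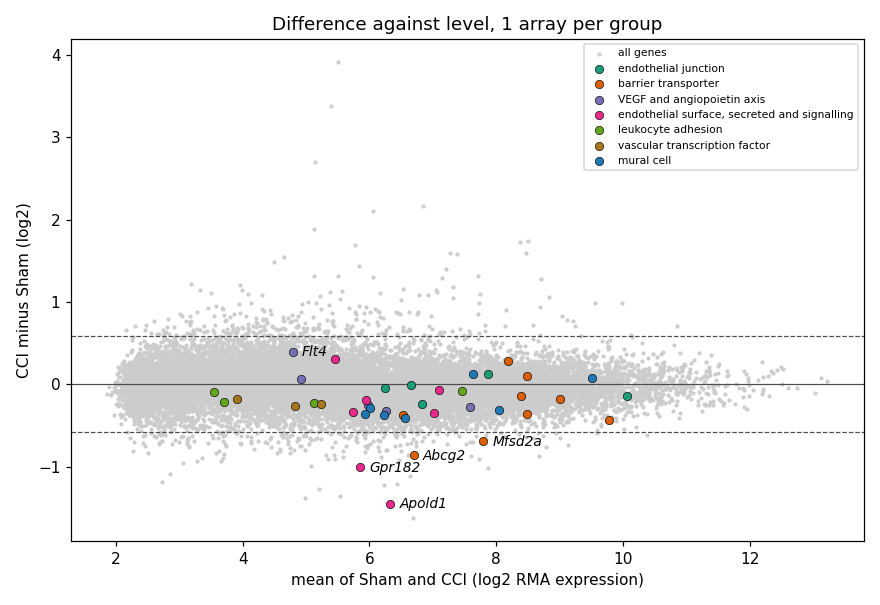
Difference between CCI and Sham (log2, vertical) against the mean of both arrays (log2 RMA expression, horizontal) for 18171 genes in grey and the 40 vessel and barrier genes coloured by class. Dashed lines mark 1.5-fold. Apold1, Gpr182, Abcg2 and Mfsd2a lie below the lower line, and Flt4, at 0.40, is the highest of the 40.

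Promoter windows from 250 bases before to 50 after the transcription start are shown for the genes furthest below Sham, since these moved in the same direction and the start region is where shared sequence could be looked for. They are RefSeq sequences of the GRCr8 assembly, read 5′ to 3′ along the gene, of Apold1 (chr4:169552349-169552648, plus strand), Gpr182 (chr7:65474061-65474360, minus strand) and Abcg2 (chr4:89075224-89075523, plus strand). For Mfsd2a, also past 1.5-fold, no window was found in the sequences used. Capitals mark the cAMP response element, the match found among the motifs searched.
Apold1: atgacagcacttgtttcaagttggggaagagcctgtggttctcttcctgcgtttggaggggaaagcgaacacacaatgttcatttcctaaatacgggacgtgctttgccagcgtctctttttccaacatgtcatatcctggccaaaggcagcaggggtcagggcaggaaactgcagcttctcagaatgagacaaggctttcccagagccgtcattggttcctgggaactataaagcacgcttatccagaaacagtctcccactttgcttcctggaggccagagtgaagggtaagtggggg
Gpr182: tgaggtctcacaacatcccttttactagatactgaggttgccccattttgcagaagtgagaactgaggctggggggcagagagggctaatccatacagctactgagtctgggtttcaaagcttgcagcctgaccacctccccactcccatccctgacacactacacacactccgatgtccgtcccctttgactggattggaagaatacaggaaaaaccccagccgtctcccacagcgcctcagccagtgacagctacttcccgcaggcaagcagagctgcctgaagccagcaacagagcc
Abcg2: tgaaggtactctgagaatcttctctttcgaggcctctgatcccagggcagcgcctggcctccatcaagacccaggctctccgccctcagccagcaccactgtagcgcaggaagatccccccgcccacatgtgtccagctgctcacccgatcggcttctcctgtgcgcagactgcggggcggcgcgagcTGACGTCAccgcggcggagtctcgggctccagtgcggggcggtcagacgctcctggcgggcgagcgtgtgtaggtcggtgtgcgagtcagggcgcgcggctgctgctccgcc

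The motifs were searched on both strands. They were the ETS core CCGGAA, the forkhead motif TGTTTAC, the SOX core AACAAT, the cAMP response element TGACGTC, the AP-1 motif TGANTCA, the CArG box of serum response factor and the glucocorticoid receptor motif AGAACA. The Abcg2 window held the cAMP response element on both strands, in overlapping matches that start 62 and 61 bases before the transcription start. Of 33469 windows of this length, 3.22% held this element. The windows of Apold1 and Gpr182 held none of the motifs, which says only that these letters are not in these 300 bases. Windows were found for 27 of the 40 genes, 28 windows in all because Egfl7 had a pair of starts. Among the 28, the SOX core was in 5, against 11.7% of all windows. The ETS core was in 2 (15.0% of all windows), the cAMP element in 2, the glucocorticoid receptor motif in 1 (20.7%) and AP-1 in 1 (7.33%). The forkhead motif (3.78%) and the CArG box (1.64%) were in none. A match is a description of the sequence and not a binding site.

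Barrier transporters were the class with the lowest median, at -0.36, with 7 of 9 members lower (77.8%, against 52.4% of all genes). By the mean, the surface and signalling class was lower still, at -0.44 against -0.29. Beside Abcg2 and Mfsd2a, the glucose carrier Slc2a1 was at 10.0 in Sham and 9.57 in CCI. The efflux pump Abcc4 was 1.29-fold lower, at 6.71 and 6.34, and the large neutral amino acid carrier Slc7a5 was 1.28-fold lower, at 8.67 and 8.31. The carriers were not lower as a whole class, however. Slco1a4, an organic anion carrier, was at 8.05 in Sham and 8.33 in CCI, or 1.22-fold higher, and the transferrin receptor Tfrc was 1.07-fold higher. Efflux pumps differed in size among themselves. Abcb1a, which encodes P-glycoprotein, was 1.11-fold lower, at 8.47 and 8.32. The separate probe set of its close relative Abcb1b was below the background level, at 3.64 and 3.73. The monocarboxylate carrier Slc16a1, which oligodendrocytes express too, was 1.13-fold lower.

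Junction genes differed least. Their median was -0.05 over 5 measured members, and it turned to 2.54e-05 when a trend of the difference on the level was subtracted. Cdh5, the cadherin of endothelial adherens junctions, was the lowest at 6.94 in Sham against 6.70 in CCI, or 1.18-fold lower. The scaffold Tjp1 was 1.10-fold lower, at 10.1 and 10.00. Cldn5, the main claudin of the barrier, was at 7.81 in Sham and 7.94 in CCI, or 1.10-fold higher. Esam was at 6.27 and 6.22 and the tight junction protein Ocln at 6.66 and 6.65. The direction of Ocln turned under 2 other scalings and that of Esam under 1, so neither has a settled direction. Of the 9 transporters, 5 lay below Cdh5, the lowest junction gene, and 4 lay within or above the range of the junction genes. This was not particular to transporters. Below Cdh5 also lay 5 of 7 mural genes and 4 of 7 surface and signalling genes. So did 3 of 5 genes of the VEGF and angiopoietin axis and 2 of 3 transcription factors, but 0 of 4 adhesion molecules. The classes thus overlapped, and with 1 array per group their difference was not tested.

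Receptors of the VEGF and angiopoietin axis went both ways. Tek, the angiopoietin receptor, had a difference of -0.32, at 6.42 in Sham and 6.10 in CCI. Its relative Tie1 was at 6.11 and 5.86, or 1.19-fold lower, and Flt1, a VEGF receptor that also acts as a decoy, at 7.72 and 7.45, or 1.21-fold lower. Flt4, the VEGF-C receptor best known from lymphatic endothelium, was at 4.59 in Sham and 4.99 in CCI, or 1.32-fold higher, close to the background level in Sham. The ligand Angpt2 was at 4.88 and 4.95. The median of the 5 was -0.25 and the mean -0.08, because Flt4 stood opposite to the receptors Tek, Tie1 and Flt1.

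Among surface and signalling genes of endothelium, 6 of 7 were lower (85.7%, against 52.4% of all genes), with a median of -0.34. The sialomucin Podxl was 1.28-fold lower, at 7.20 in Sham and 6.85 in CCI. Vwf, which encodes von Willebrand factor, was at 5.90 and 5.56, or 1.26-fold lower. Nos3, the endothelial nitric oxide synthase, was 1.14-fold lower and the sialomucin Emcn 1.05-fold lower. Egfl7, a secreted factor of endothelium, was at 5.30 in Sham and 5.60 in CCI, 1.23-fold higher. This class thus held the furthest members of the whole set below Sham, Apold1 and Gpr182, beside general endothelial genes that differed by less than 1.3-fold.

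Leukocyte adhesion molecules were not higher in the CCI pool. The vascular cell adhesion molecule Vcam1 was at 7.49 in Sham against 7.41 in CCI, with Icam2 at 5.24 against 5.01. Sele and Selp, the endothelial and platelet selectins that are displayed on inflamed vessels, did not exceed the background level, with Sele at 3.59 and 3.49 and Selp at 3.81 and 3.59. The median of the 4 was -0.16, though Sele and Selp have no dependable direction at such levels. All 3 measured transcription factors had lower values in CCI, but only Sox17 and Sox18 lay above the background level. Sox17 was at 5.36 and 5.12, or 1.18-fold lower, and Sox18 at 4.95 and 4.69, or 1.20-fold lower. Foxc1 was below the background level, at 3.99 and 3.82.

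Of the 7 measured mural genes, 5 (71.4%) were lower, with a median of -0.31. Of all genes 52.4% were lower, and of genes at or above the median level 58.3%. Abcc9, a channel subunit of pericytes, was 1.33-fold lower, at 6.77 in Sham and 6.36 in CCI. Pdgfrb was 1.30-fold lower, at 6.42 and 6.04, and Notch3, a receptor of mural cells, 1.28-fold lower, at 6.11 and 5.74. The adhesion molecule Mcam, shared with endothelium, was at 8.21 and 7.89. Cspg4 was at 6.15 and 5.86, but it also marks oligodendrocyte precursors. By contrast, Rgs5, an abundant pericyte transcript, was at 9.47 and 9.55, and Tagln, a contractile protein of smooth muscle, at 7.57 and 7.70, 1.06-fold and 1.09-fold higher. The 7 mural genes ranged from -0.41 to 0.12, within the range of the transporters, from -0.86 to 0.28.

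The wider vessel genes did not pass the threshold. In 7 other lists of endothelial, junction, transporter, ligand, Wnt and Norrin, mural and basement membrane genes, 119 of 134 genes were measured. Of these, 81 (68.1%) were lower and 38 higher, against 52.4% of all genes lower. None was past 1.5-fold in either direction, against 2.78% of all genes. The common median of the 119 was -0.09. Other barrier transporters again had the lowest median of these lists, at -0.22, with 14 of 18 lower. The efflux pump Abcc1 (-0.58, at 6.46 and 5.88, just short of the threshold) and the glutamine carrier Slc38a3 (1.42-fold) were lowest. Of the 4 that were higher, Slco2b1 (1.24-fold) was the furthest. Other junction and vesicle genes had a median of 0.01, with 8 of 15 higher. Its direction turned under each of 2 other scalings. F11r, at 4.25 and 4.63, and Cav2, with a difference of 0.13, were the highest, although F11r did not exceed the background level in Sham. Cldn1 (-0.39), Lsr (-0.33) and Cldn12 (-0.29) were the lowest, the CCI value of Cldn1, 4.27, being below the background level.

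Ligands and partners had a median of -0.10 with 19 of 24 lower. The Notch ligand Jag1 (1.40-fold) and the VEGF family member Pgf (1.38-fold) were lowest. Of the 5 that were higher, Nrp1 (1.22-fold) was the furthest. Other endothelial genes had a median of -0.09, with 13 of 20 lower. Palmd (1.46-fold) and Adgrf5 (1.35-fold) were lowest, whereas Cd34 (1.38-fold), Fli1 (1.33-fold) and Plvap (1.29-fold) were higher. Other mural genes had a median of -0.11 with 15 of 18 lower, among them Anpep (1.31-fold) and the pericyte channel Kcnj8 (1.28-fold). The 3 higher were Higd1b (1.29-fold), Ano1 (1.13-fold) and Atp13a5 (1.03-fold). The basement membrane list had a median of -0.09 with 7 of 10 lower. Its laminin chains went both ways, Lamc1 (1.48-fold) and Lamb2 (1.30-fold) being lowest and Lama5 (1.36-fold) higher. Genes of Wnt and Norrin signalling, which induces the barrier during development, had a median of 0.04, with 8 of 14 higher and 6 lower. The co-receptor Lrp5 (1.26-fold) and Tspan12 (1.18-fold) were highest, whereas Reck and the Norrin receptor Fzd4 were lower, with differences of -0.38 and -0.32.

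**Figure D3:**
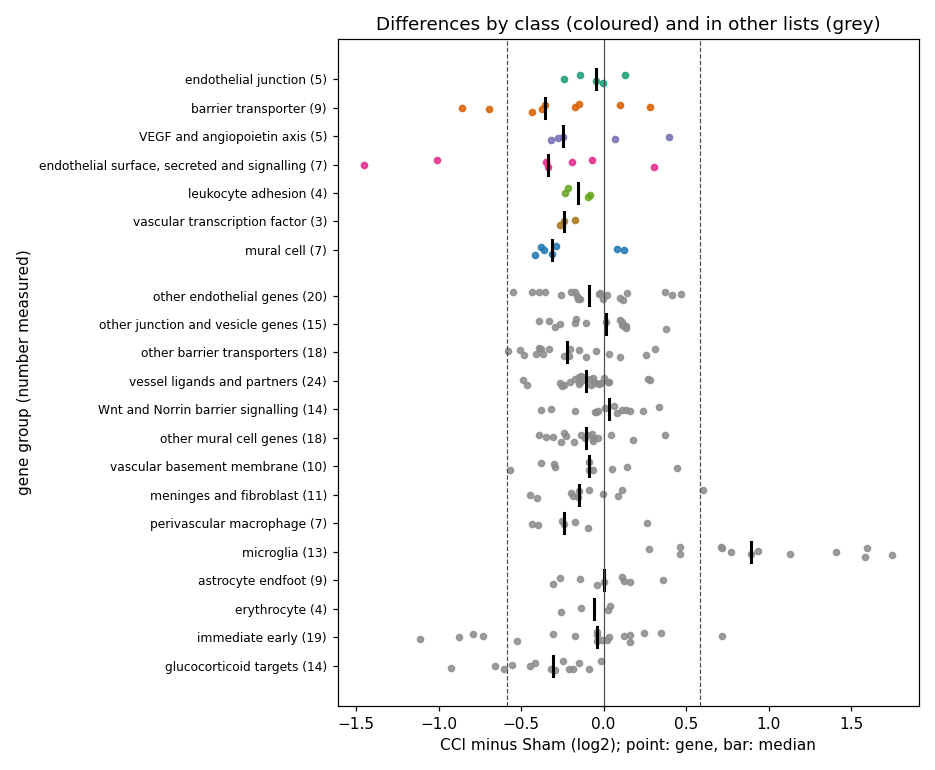
Difference between CCI and Sham (log2, horizontal) for each gene (points) of the 7 classes (coloured) and of 14 other lists (grey), with the median as a black bar and 1.5-fold as dashed lines. Transporters have a median of -0.36 and junction genes of -0.05, microglia markers lie to the right with a median of 0.89, and all glucocorticoid targets lie left of 0.

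Markers of other cells differed beside the vessel genes. Every one of the 13 measured microglia markers was higher in CCI, and 10 passed 1.5-fold (76.9%, against 1.64% of all genes). Their median was 0.89, and C1qa was at 7.64 and 9.38. Astrocyte endfoot genes had a median of 0.00 and none past the threshold, with 5 of 9 higher and 4 lower. Gfap was 1.28-fold and Mlc1 1.12-fold higher, and Dag1 1.24-fold and Kcnj10 1.20-fold lower. Of the meninges and fibroblast list, 8 of 11 were lower, with a median of -0.15. Its members Pdgfra (1.36-fold) and Igf2 (1.33-fold) were lower and Col1a1 (1.52-fold), at 5.53 and 6.13, higher. Perivascular macrophage markers, of cells that lie on the vessels, had a median of -0.24 with 6 of 7 lower. Lyve1 (1.32-fold) was the furthest of the lower markers above the background level. Ms4a7, at 3.73 and 3.30, and Cd163, at 4.02 and 3.84, were below that level. Pf4, at 5.32 and 5.59, was 1.20-fold higher. No marker of this list reached the median level of all genes. Of 4 measured erythrocyte genes, a sign of blood left in the tissue, 2 did not exceed the background level, and Hba-a1, at 7.25 and 6.99, and Slc4a1, at 4.83 and 4.69, were lower. The part of these cells in the vessel differences was not tested.

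Because Apold1 is an early response gene, immediate early genes were set beside it. Their median was -0.04 over 19 genes, with 11 lower and 8 higher. Past 1.5-fold, 4 (21.1%) were lower and 1 higher, against 1.14% and 1.64% of all genes, and the rest were within 1.5-fold. Egr1 was at 7.19 in Sham and 6.08 in CCI, Dusp1 at 9.12 and 8.24, Nr4a1 at 6.68 and 5.89 and Zfp36 at 6.84 and 6.11, whereas Atf3 was 1.64-fold higher. Classical glucocorticoid targets, several of which vessels express, were all lower, 14 of 14 with a median of -0.31, against 52.4% of all genes lower. Of these targets, 21.4% were lower past 1.5-fold, against 1.14% of all genes. Zbtb16, 1.90-fold lower, Mt1, at 8.91 and 8.26, and Fkbp5, at 7.05 and 6.45, were past 1.5-fold. Fkbp5 was within it under 2 other scalings, and Mt1 with the mean over its probe sets. The part of either response in the lower levels of Apold1, Gpr182, Abcg2 and Mfsd2a was not tested.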

How the data were processed

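The deposited values were log2 expression values per probe set of the Affymetrix Rat Gene 2.0 ST array, which the authors obtained by RMA (background correction, quantile normalization and summary over probes). RMA draws low values together, so that folds of weak genes may be understated. The arrays, 1 per group, held 28879 probe sets, from 1.72 to 13.2 in Sham and from 1.70 to 13.3 in CCI. The number of arrays limits the precision.

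Platform annotation named 1 gene for 18511 probe sets, several for 575 and none for 9793. For 18394 of the 18511 probe sets with 1 gene, the symbol was taken from a RefSeq table of GRCr8 through the Entrez ID. For the array, no genome build is given in the sources used here. Per gene, the probe set with the highest mean was kept, and each of the 40 genes had a single one. Differences and counts past 1.5-fold were computed with Python 3.11.15, numpy 2.4.6, pandas 2.3.3 and statsmodels 0.14.6. The code was checked on simulated data with changes set well past the threshold, which checks the computation and not the reliability of the counts. The study's P threshold cannot be applied without replicates.

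Every measured gene is named. Of the other lists, genes past 1.5-fold and the 2 furthest in the direction of the median were to be named, microglia by C1qa only. Members furthest in the opposite direction, except erythrocyte genes below the background level, and Abcb1b were added after their values were seen. The genes, classes, lists and motifs were chosen with earlier results of these data known. Alternatives were the mean over probe sets, quantile normalization of the deposited columns, subtraction of a lowess trend (span 0.3), genes at or above the median level only, thresholds of 2-fold and of 0.32 on the log2 scale, and means for medians.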

Additional observations from a re-analysis of the deposited data

How the results depend on the processing

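The lower levels of Apold1, Gpr182, Abcg2 and Mfsd2a stayed past 1.5-fold after quantile normalization and after lowess subtraction. On these scales and as deposited, Apold1 lay between -1.40 and -1.45 and Gpr182 between -0.98 and -1.01. Abcg2 lay between -0.80 and -0.86 and Mfsd2a between -0.64 and -0.69. The mean over probe sets could not change these values, since each of the 40 genes had a single probe set. Nor could the floor on level, which only removes genes. Past 2-fold 2 genes were counted, both lower, and past 0.32 on the log2 scale 14. Both counts are for the values as deposited. After lowess subtraction Gpr182, at -0.98, was within 2-fold. The number lower in CCI was 31 of 40 after quantile normalization and 30 after lowess subtraction, and the median over the 40 lay between -0.22 and -0.24. With the floor, the median over the 30 genes left was -0.26. The junction median was -0.024 after quantile normalization and 2.54e-05 after lowess subtraction, so that its direction is not settled. The adhesion median was -0.080 with the floor on level, which left only Vcam1. The floor left no transcription factor and no perivascular macrophage marker. The mean of the VEGF and angiopoietin axis was -0.076. The median of the basement membrane list moved to -0.30 with the floor, those of other junction and immediate early genes to -0.17, other endothelial genes to -0.16, Wnt and Norrin genes to 0.08 and erythrocyte genes to -0.26. After lowess subtraction the other endothelial median was -0.043, and after quantile normalization the Wnt and Norrin median was 0.012. The erythrocyte median, -0.058 as deposited, was -0.10 and -0.12 under these. No paired analysis was possible because each group had 1 array. Depth cannot be stated for arrays, and values at or below the background level have no dependable direction.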
